A study of Mus musculus with 9 samples.

Results

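Wnt signalling genes were examined in the tibia of mice with streptozotocin-induced diabetes and of diabetic mice given liraglutide. The rule for members used gene symbols and no expression value: the Wnt ligands, the Frizzled receptors with Lrp5, Lrp6, Ror1, Ror2 and Ryk, the R-spondins with Lgr5 and Lgr6, the secreted antagonists (the Sfrp genes, Frzb, the Dkk genes and Wif1), and Ctnnb1, Axin1, Axin2, Tcf7, Tcf7l1, Tcf7l2 and Lef1 inside the cell. The rule found 56 of the 18272 genes in the deposited table: 18 ligands, 15 receptors, 6 R-spondins and Lgr receptors, 10 secreted antagonists and 7 intracellular members. Of these 56 members, 44 reached 10 counts in at least 3 of the 9 libraries and were tested with 13960 genes in all, and 0 of the 44 reached the minimum through the libraries of 1 group alone. Without the T1D libraries, however, Rspo1, Rspo2, Lgr5, Wnt2 and Ror2 would not have reached it. For these members the minimum thus rests partly on the group where their means were highest. The part of this in the counts of members below was not tested.

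All 9 mice were female C57BL/6J, bought at 10 to 11 weeks of age. Normal glucose-tolerant (NGT) mice received the citrate vehicle and then saline. T1D mice received streptozotocin, a toxin of insulin-producing beta cells, and then saline. Lira mice received streptozotocin and then liraglutide, which activates the receptor of the gut hormone GLP-1, injected under the skin at 0.6 mg/kg/day for 8 weeks, although the label of Lira mouse 3 gives 9 weeks. Each group held 3 mice with 1 tibia library each. The diabetes was chemically induced and the whole tibia was read, so the values belong to no single cell type.

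Wnt ligands are secreted lipid-modified proteins that bind a Frizzled receptor together with the co-receptor Lrp5 or Lrp6, which stops the Axin complex from degrading beta-catenin (encoded by Ctnnb1), so that beta-catenin can act on genes bound by the TCF/LEF factors. R-spondins, acting through Lgr receptors, keep Frizzled receptors at the cell surface. The Sfrp proteins, Frzb and Wif1 bind ligands, whereas Dkk1 and Sost bind Lrp5 and Lrp6. In bone the pathway is known for promoting osteoblast formation, and loss of Lrp5 or gain of Sost lowers bone mass.

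The libraries held 13086373 to 16528394 counts, and the upper limit behind a count of 0, taken as 3 counts, corresponded to 0.163 to 0.237 CPM, that is, counts per 1000000 after scaling by edgeR's trimmed mean of M values (TMM). Defining markers of bone were present: all 9 osteoblast markers passed the count minimum, although their summed level ran from 206 CPM in NGT mouse 2 to 5580 CPM in T1D mouse 1. Skeletal muscle markers took 10.8% of the counts in T1D mouse 1 and up to 21.3% in T1D mouse 3, although the bones had been cleaned of muscle. T1D mouse 1 stood apart: it had the highest summed osteoblast, osteocyte, chondrocyte, tendon, adipocyte, osteoclast and macrophage markers and the lowest summed skeletal muscle markers of the 9 libraries. NGT mouse 2 stood apart the other way, with the lowest summed osteoblast, osteocyte, chondrocyte, erythroid, neutrophil, B cell, T cell, osteoclast and macrophage markers, and it enters the comparison of T1D with NGT mice. Lira mouse 3 had the highest summed erythroid, neutrophil, B cell and T cell markers. In whole bone, fewer cells of a type and less RNA per cell cannot be told apart, and the part of these marker differences in the values below was not tested.

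Per length, the most abundant member was Ctnnb1, whose mean over the 9 libraries was 65.7 fragments per kilobase of transcript, scaled to sequencing depth (FPKM). The receptor Ryk followed at 23 FPKM, then Fzd7 at 13.7, Fzd4 at 12.3, Sfrp4 at 11.7 and Fzd9 at 10.6 FPKM. The 4 receptors among these were at higher levels than the most abundant ligand, Wnt4, at 6.61 FPKM. In all, 19 of the 56 members were at 1 FPKM or more in every library and 19 were under 1 FPKM in every library. The 12 members left untested were 9 ligands (Wnt1, Wnt3, Wnt3a, Wnt6, Wnt7b, Wnt8a, Wnt8b, Wnt9b and Wnt10a), Rspo4, Dkk1 and Dkk4. Their counts summed over the 9 libraries ran from 1 for Wnt8a to 76 for Wnt6, with 49 for Dkk1. Wnt10a (2, 2 and 0 counts in NGT, 10, 4 and 4 in T1D and 2, 3 and 4 in Lira mice) and Wnt9b (2, 0 and 1 counts in NGT, 3, 5 and 4 in T1D and 2, 1 and 1 in Lira mice) had higher CPM in all T1D mice than in all other mice, on counts near the limit of 3. This order was found in 0.989% of tested genes, and its share among untested genes was not taken. For Wnt10a it rests on the TMM scaling, since T1D mice 2 and 3 and Lira mouse 3 all had 4 counts. Per library size T1D mouse 3 lay below Lira mouse 3. With no count minimum all 56 members were tested, and 0 passed an adjusted p of 0.05 in edgeR's test in either comparison, with 2 and 5 at an unadjusted p under 0.05 beside 3.75% and 2.97% of all genes, none of these members among the 12.

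**Figure D1:**
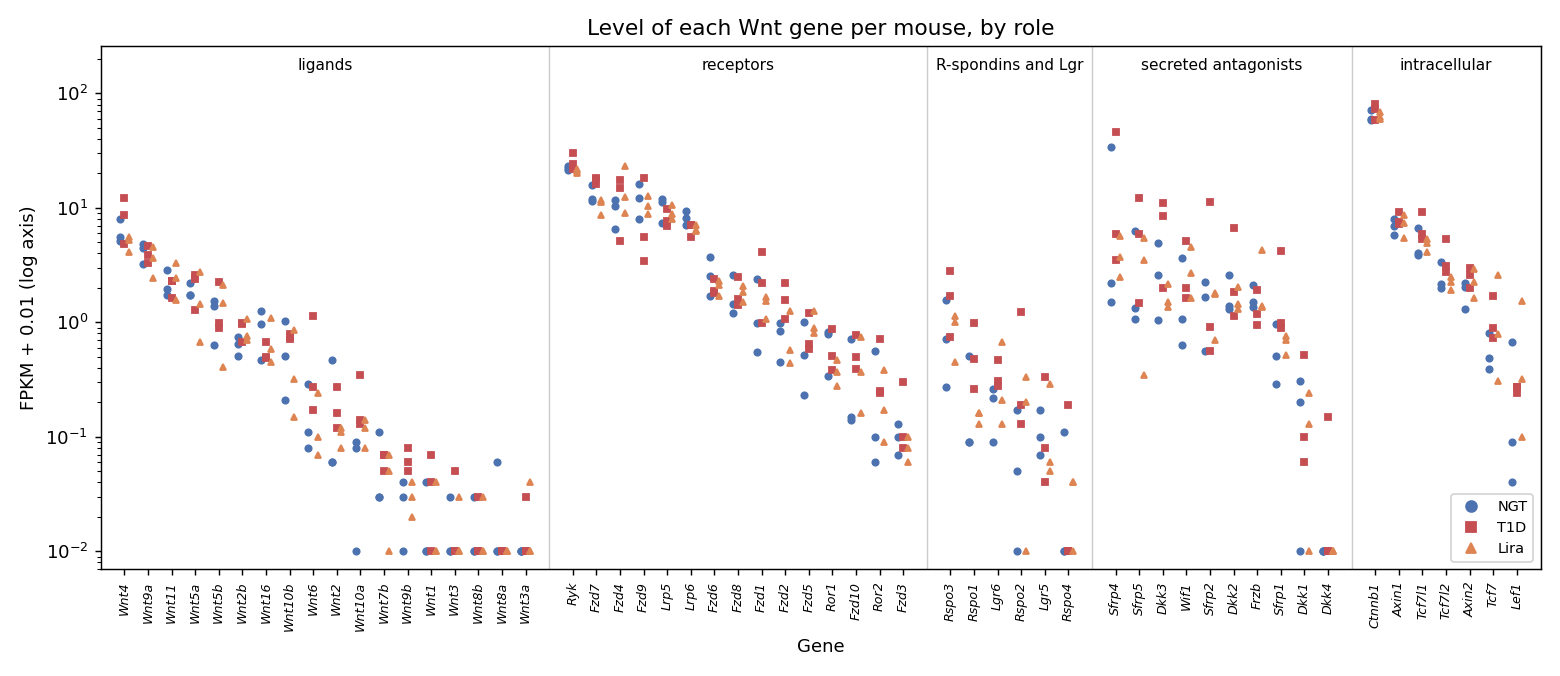
Deposited FPKM plus 0.01 (log axis) of each of the 56 members in each of the 9 mice (points, marked by group), with members grouped by role and ordered by mean level. Ctnnb1 stood highest at a mean of 65.7 FPKM and Wnt4 was the highest ligand at 6.61 FPKM, whereas 19 of the 56 members were under 1 FPKM in every library.

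The first comparison asked which members differed between diabetic and normal glucose-tolerant bone. By edgeR's quasi-likelihood test, 0 of the 44 tested members passed an adjusted p of 0.05, as did 0 of all 13960 genes (0%), and the adjusted p of the members ran from 0.977 to 0.999. At an unadjusted p under 0.05, 2 members (4.55%) stood against 3.95% of all genes, which is near the background. They were Sfrp1, at a higher mean in T1D mice (2.36% of all genes), and Lrp6, at a lower mean (1.60%). With DESeq2, 0 members passed the adjusted threshold, as did 1 of all genes, and 4 members had an unadjusted p under 0.05, beside 4.99% of all genes. The members leaned upward without passing the test: 35 of 44 (79.5%) had a positive log2 fold change against 52.1% of all genes. A fold above 2 upward was seen in 7 members (15.9%: Sfrp5, Sfrp1, Dkk3, Fzd2, Sfrp2, Rspo1 and Rspo2) against 5.27% of all genes, and downward in 0 members against 0.838% of all genes. Members also spread more between mice than genes in general, with a median ratio of highest to lowest CPM of 4.71 beside 2.11. The part of that spread in the fold counts of both comparisons was not tested.

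The second comparison asked which members differed between liraglutide-treated and untreated diabetic bone. Again 0 of the 44 members passed an adjusted p of 0.05 in edgeR's test, as did 0 of all genes (0%), with adjusted p from 0.978 to 0.999. At an unadjusted p under 0.05 there were 5 members (11.4%) against 3.33% of all genes, and all 5 had lower means in Lira than in T1D mice (Tcf7l2, Fzd7, Sfrp1, Dkk3 and Rspo1) where 1.78% of all genes did. DESeq2 called 0 members and 1 of all genes after adjustment, and it had 4 members with an unadjusted p under 0.05, beside 4.44% of all genes. The log2 fold change was positive in 17 of 44 members (38.6%) against 55.3% of all genes. A fold above 2 downward was seen in 7 members (Sfrp4, Fzd3, Sfrp1, Dkk3, Sfrp2, Rspo1 and Rspo2) against 4.41% of all genes, and upward in 1, Lef1, against 2.77%. The 3 T1D mice enter both comparisons, and a high or low value among them moves the 2 fold changes in opposite directions.

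**Figure D2:**
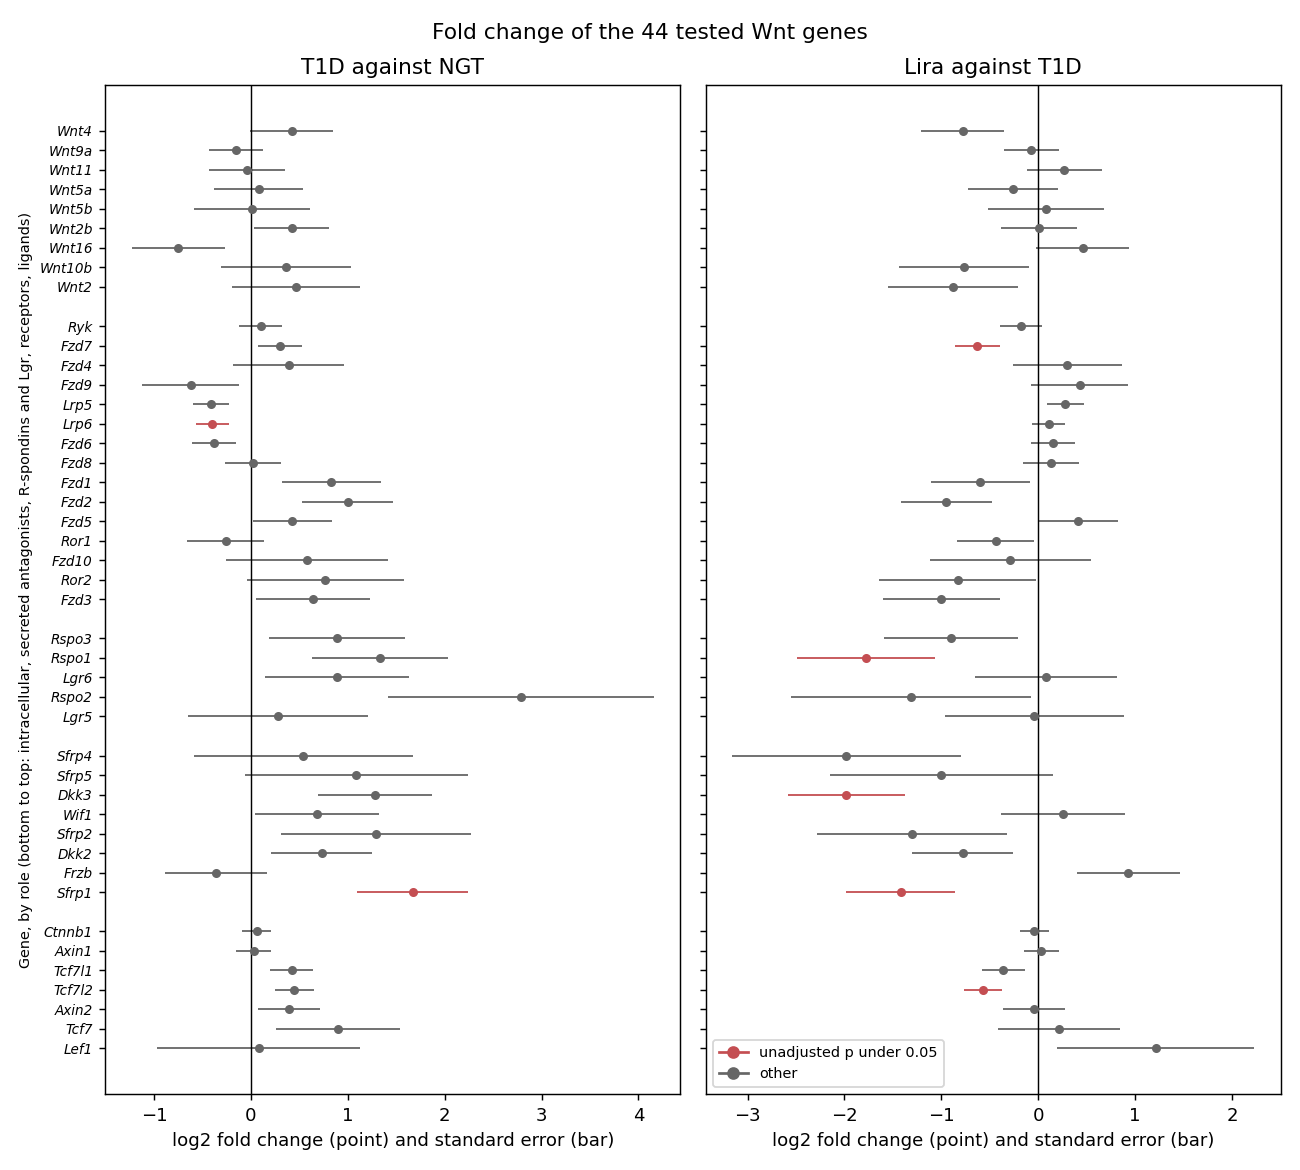
Log2 fold change with its standard error for the tested members in T1D against NGT and in Lira against T1D (edgeR, 3 mice per group). None of the members passed an adjusted p of 0.05 in either comparison, and Sfrp1, at 1.67 and then -1.42, was the member with an unadjusted p under 0.05 in both.

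Of the 18 ligands, 9 were tested. Their median log2 fold change was 0.08 in T1D against NGT mice (6 higher, 3 lower) and -0.07 in Lira against T1D mice (4 higher, 5 lower), beside medians of 0.02 and 0.04 over all genes. Wnt4, the most abundant ligand, stood at 16.4, 24.1 and 35.0 CPM in NGT mice 1 to 3, at 15.1, 33.7 and 52.4 CPM in T1D mice and at 17.3, 22.1 and 19.3 CPM in Lira mice. The T1D mice spanned the values of both other groups, so the groups overlapped. The log2 fold change of Wnt4 was 0.42 (SE 0.43) in T1D against NGT mice and -0.78 (SE 0.43) in Lira against T1D mice, and without T1D mouse 3 these were -0.05 and -0.32. Wnt9a, with 3.90 FPKM on average, lay between 8.99 and 17 CPM in the 9 libraries, with log2 fold changes of -0.15 (SE 0.28) and -0.07 (SE 0.28).

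Wnt5a and Wnt11 are known mainly for signalling that does not run through beta-catenin. Wnt5a was at 8.44, 8.20 and 8.79 CPM in NGT mice, at 8.86, 11.8 and 6.14 CPM in T1D mice and at 3.5, 13.2 and 5.68 CPM in Lira mice. Its NGT values were close together and its Lira values spread beyond both other groups. For Wnt5a the log2 fold changes were 0.08 (SE 0.46) and -0.26 (SE 0.46). Wnt11 ranged from 2.81 to 6.78 CPM with both extremes in Lira mice, and its log2 fold changes were -0.04 (SE 0.39) and 0.27 (SE 0.39). Wnt2, named after its values were seen because all its Lira values lay below all its T1D values, was a low-count gene at 0.652, 1.44 and 0.667 CPM in T1D mice and at 0.571, 0.389 and 0.517 CPM in Lira mice. NGT mice had Wnt2 at 1.33, 0.309 and 0.317 CPM, which spans the Lira range.

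All 15 receptors were tested, with a median log2 fold change of 0.30 in T1D against NGT mice (10 higher, 5 lower) and of -0.18 in Lira against T1D mice (7 higher, 8 lower). Fzd7, a Frizzled receptor, was at 48.0, 86.8 and 63.3 CPM in NGT mice, at 70.7, 86.8 and 87.2 CPM in T1D mice and at 45.7, 62.8 and 49.1 CPM in Lira mice. Every Lira value lay below every T1D value, whereas NGT and T1D values overlapped. The mean was 81.6 ± 9.43 CPM in T1D mice and 52.5 ± 9.09 CPM in Lira mice (SD, n = 3 each), a log2 difference of -0.63 (SE 0.23, edgeR unadjusted p = 0.0249, adjusted p = 0.978). In T1D against NGT mice the log2 fold change of Fzd7 was 0.30 (SE 0.23), from 0.12 without NGT mouse 1 to 0.55 without NGT mouse 2.

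The co-receptors Lrp5 and Lrp6 were the members whose T1D values all lay below all NGT values. Lrp6 stood at 73.5, 86.2 and 76.9 CPM in NGT mice, at 54.0, 68.0 and 57.8 CPM in T1D mice and at 64.9, 74.8 and 54.4 CPM in Lira mice. Its mean was 78.8 ± 6.56 CPM in NGT and 59.9 ± 7.26 CPM in T1D mice (SD, n = 3 each), a 0.76-fold level (log2 -0.40, SE 0.17, edgeR unadjusted p = 0.042, adjusted p = 0.977), and with scaling by library size its unadjusted p was not under 0.05. The Lira values of Lrp6 overlapped both other groups, with a log2 difference of 0.11 (SE 0.17) from T1D mice. Lrp5, named after its values were seen, was at 52.3, 65.5 and 43.9 CPM in NGT mice, at 41.2, 40.4 and 40.1 CPM in T1D mice and at 45.3, 60.5 and 41.6 CPM in Lira mice. In TMM-scaled CPM the 3 T1D mice differed by little from each other (SD 0.553 CPM) and lay below all 6 other libraries, for which the background was 1.23% of all tested genes. In deposited FPKM neither held: the T1D mice were at 9.81, 7.68 and 6.97 and overlapped both other groups. The log2 fold change of Lrp5 was -0.41 (SE 0.19) in T1D against NGT mice and 0.28 (SE 0.19) in Lira against T1D mice, and these were -0.24 without NGT mouse 2 and 0.10 without Lira mouse 2. When CPM were taken per library size, the Lrp5 values of T1D and NGT mice overlapped and those of Lrp6 did not. The whole span of Lrp5 overlaps that of Gm36672 in RefSeq, and the strand setting of the counting is not given in the sources used here. The Lrp5 counts were whole in every library, and whether reads of both genes were mixed was not tested.

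The other abundant receptors overlapped between the groups in both comparisons. Ryk, a receptor with a kinase-like domain, lay between 58.8 and 100 CPM, with log2 fold changes of 0.10 (SE 0.22) and -0.18 (SE 0.22). Fzd4, which also binds the non-Wnt ligand Norrin and overlaps Tmem135, was at 31.9, 48.8 and 27.7 CPM in NGT mice, at 15.3, 65.2 and 61.6 CPM in T1D mice and at 93.1, 51.1 and 30.1 CPM in Lira mice. T1D mouse 1 was lowest and Lira mouse 1 highest, and the groups overlapped in both comparisons. The Fzd9 values were 21.4, 38.4 and 19.0 CPM in NGT mice, 31.1, 7.27 and 12.9 CPM in T1D mice and 20.3, 29.5 and 19.4 CPM in Lira mice. T1D mice 2 and 3 had lower Fzd9 than all NGT and Lira mice, and T1D mouse 1 did not: the log2 fold changes moved from -0.62 to -1.38 in T1D against NGT mice and from 0.43 to 1.19 in Lira against T1D mice when that mouse was left out. Without NGT mouse 2 the first was -0.24, and the second was 0.05 without T1D mouse 2 and 0.21 without Lira mouse 2. Fzd2, a low-level receptor named after its values were seen, was at 2.98, 3.40 and 1.82 CPM in NGT mice, at 6.41, 5.76 and 4.27 CPM in T1D mice and at 1.71, 4.98 and 1.84 CPM in Lira mice. Its T1D values lay above all NGT values under both scalings (log2 1.00, SE 0.47, edgeR unadjusted p = 0.0656), and Lira mouse 2 overlapped the T1D mice.

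**Figure D3:**
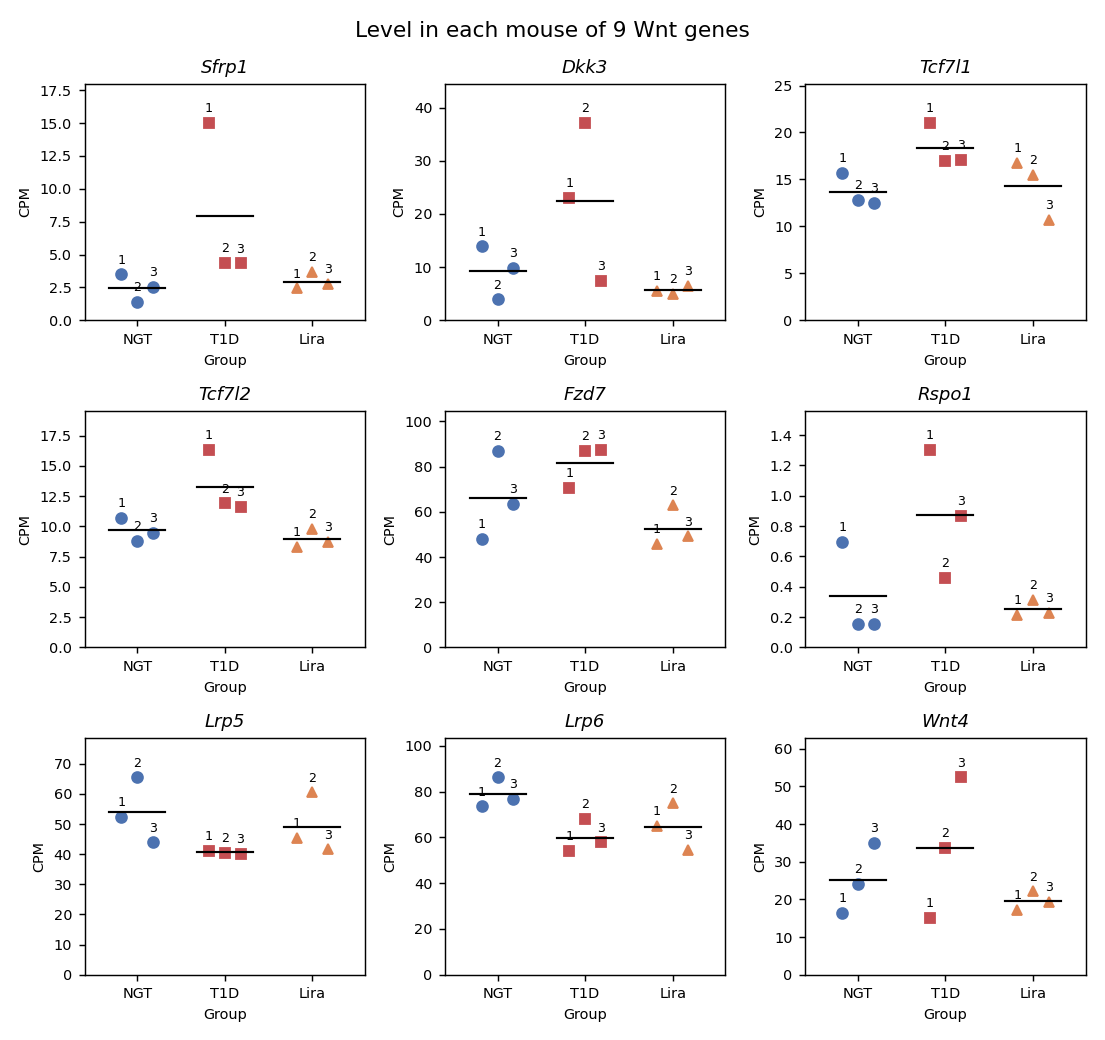
CPM (from 0) of 9 members in each of the 9 mice (points, with the number of the mouse), by group, where lines mark the group means. Sfrp1 reached 15.0 CPM in T1D mouse 1 and 4.33 to 4.39 CPM in the other T1D mice, whereas the Fzd7 values of Lira mice all lay below those of T1D mice.

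R-spondins and Lgr receptors were low in whole tibia, the highest being Rspo3 at a mean of 1.14 FPKM. The 5 tested members had a median log2 fold change of 0.89 in T1D against NGT mice, with all 5 higher, and of -0.90 in Lira against T1D mice, with 4 lower. T1D mouse 1 held the highest value of 4 of the 5 (Rspo1, Rspo2, Rspo3 and Lgr5). The marker lists highest in that mouse also had positive and then negative medians, and the other lists did not (given with the antagonists). Their part in these values was not tested. Rspo1 rested on few reads: 11, 2 and 2 counts in NGT mice, 24, 7 and 13 in T1D mice and 3, 4 and 4 in Lira mice. Lira mice lay below all T1D mice, whereas NGT mouse 1 overlapped the T1D range. In CPM the T1D mice had Rspo1 at 1.30, 0.458 and 0.867 and the Lira mice at 0.214, 0.312 and 0.230, a log2 difference of -1.78 (SE 0.71, edgeR unadjusted p = 0.0356, adjusted p = 0.978). Against NGT mice the log2 fold change of Rspo1 in T1D mice was 1.33 (SE 0.70), and 2.43 without NGT mouse 1.

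Rspo2 had the highest fold among the members in T1D against NGT mice (log2 2.79, SE 1.37), from 0.444, 0.155 and 0 CPM in NGT mice to 3.37, 0.393 and 0.667 CPM in T1D mice. The log2 fold change was 1.32 without T1D mouse 1 and 4.11 without NGT mouse 1, and several of the values were near the limit of 3 counts. In Lira mice Rspo2 was at 0.785, 0 and 0.976 CPM. Rspo3 was at 1.40, 4.18 and 0.712 CPM in NGT mice, at 5.38, 1.77 and 4.47 CPM in T1D mice and at 1.14, 2.96 and 2.12 CPM in Lira mice, with log2 fold changes of 0.89 (SE 0.70) and -0.90 (SE 0.69). Leaving out 1 mouse at a time gave 0.48 (without NGT mouse 3) to 1.86 (without NGT mouse 2) for the first. The groups overlapped for Rspo3 in both comparisons. Lgr6, an R-spondin receptor, ranged from 0.554 CPM in NGT mouse 3 to 4.85 CPM in Lira mouse 1, with log2 fold changes of 0.89 (SE 0.74) and 0.08 (SE 0.73). The first ran from 0.56 without NGT mouse 3 to 1.36 without NGT mouse 2, and the second was -1.03 without Lira mouse 1.

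Secreted antagonists had the highest median log2 fold change of the roles in T1D against NGT mice, 0.91 over 8 tested members (7 higher, 1 lower), and the lowest in Lira against T1D mice, -1.15 (2 higher, 6 lower). The R-spondins and Lgr receptors, which act in the other direction on the pathway, were close, at 0.89 and -0.90. Of 13 cell type marker lists, 7 had a positive and then a negative median log2 fold change, as the antagonists did: osteoblasts (1.14 and -1.20), osteocytes (0.57 and -0.21), chondrocytes (1.49 and -0.60), tendon and fibroblasts (0.38 and -0.55), adipocytes (0.67 and -0.92), osteoclasts (1.90 and -1.14) and macrophages (2.72 and -2.0). The other 6 did not: skeletal muscle (-0.10 and -0.02), endothelial cells (-0.17 and 0.33), erythroid cells (1.04 and 0.71), neutrophils (-0.05 and 1.11), B cells (-0.32 and 1.78) and T cells (0.75 and 0.11). The part of these markers in the antagonist values was not tested. Sfrp1, which binds Wnt ligands outside the cell, was at 3.49, 1.39 and 2.53 CPM in NGT mice, at 15.0, 4.39 and 4.33 CPM in T1D mice and at 2.43, 3.66 and 2.76 CPM in Lira mice. All 3 T1D mice lay above all 6 other mice, for which the background was 0.989% of tested genes, and Tcf7l1 and Tcf7l2 were the other tested members with this order. The mean of Sfrp1 was 2.47 ± 1.05 CPM in NGT, 7.91 ± 6.14 CPM in T1D and 2.95 ± 0.639 CPM in Lira mice (SD, n = 3 each). It was 3.19-fold higher in T1D than in NGT mice (log2 1.67, SE 0.57, edgeR unadjusted p = 0.017, adjusted p = 0.977) and 0.373-fold in Lira against T1D mice (log2 -1.42, SE 0.56, edgeR unadjusted p = 0.033, adjusted p = 0.978). Without T1D mouse 1, the library that stood apart in its marker lists, the log2 fold changes were 0.81 and -0.56. With CPM taken per library size, Sfrp1 overlapped between T1D and NGT mice but not between Lira and T1D mice.

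Dkk3, a member of the Dickkopf family that does not share the binding of Dkk1 to Lrp6, had the lowest unadjusted p of the members in Lira against T1D mice. It was at 13.9, 3.94 and 9.90 CPM in NGT mice, at 23, 37.1 and 7.40 CPM in T1D mice and at 5.57, 4.98 and 6.54 CPM in Lira mice. All Lira values lay below all T1D values, though T1D mouse 3 and Lira mouse 3 were close together and overlapped when CPM were taken per library size. The mean was 22.5 ± 14.9 CPM in T1D and 5.70 ± 0.788 CPM in Lira mice (SD, n = 3 each), a log2 difference of -1.98 (SE 0.60, edgeR unadjusted p = 0.01, adjusted p = 0.978) that ran from -2.40 to -1.43 when each mouse was left out in turn. Against NGT mice, Dkk3 was 2.43-fold higher in T1D mice (log2 1.28, SE 0.59), and 0.71 on the log2 scale without T1D mouse 2.

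Sfrp4, the most abundant antagonist by mean FPKM, owed that mean to NGT mouse 1 and T1D mouse 1. Its values were 49.3, 2.94 and 4.35 CPM in NGT mice, 65.2, 10.5 and 6.80 CPM in T1D mice and 7.07, 4.83 and 8.95 CPM in Lira mice. The log2 fold change in T1D against NGT mice was 0.54 (SE 1.13), 2.91 without NGT mouse 1 and -1.13 without T1D mouse 1. In Lira against T1D mice it was -1.98 (SE 1.18), and -0.31 without T1D mouse 1. Sfrp5 likewise varied within every group, from 1.65 to 13.3 CPM in NGT, from 2.23 to 23.4 CPM in T1D and from 0.574 to 11.3 CPM in Lira mice. Wif1, which binds Wnt ligands, was at 6.79, 1.55 and 2.69 CPM in NGT mice, at 9.24, 4.52 and 4 CPM in T1D mice and at 6.64, 11.4 and 3.27 CPM in Lira mice. Its log2 fold changes were 0.68 (SE 0.64) and 0.26 (SE 0.64), and the groups overlapped. The first was 1.48 without NGT mouse 1 and 0.21 without T1D mouse 1.

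The 7 intracellular members all had positive log2 fold changes in T1D against NGT mice (median 0.39), and 4 of 7 had negative ones in Lira against T1D mice (median -0.04). Ctnnb1 was steady, at 209 to 235 CPM in NGT, 224 to 255 CPM in T1D and 214 to 242 CPM in Lira mice, with log2 fold changes of 0.06 (SE 0.15) and -0.04 (SE 0.15). Axin1, a scaffold of the beta-catenin destruction complex, lay between 21.3 and 28.0 CPM with log2 fold changes of 0.03 (SE 0.18) in each comparison. Axin2, an Axin paralogue and a known target of the pathway, stood at 7.62, 9.36 and 6.17 CPM in NGT mice, at 8.53, 12.4 and 9.34 CPM in T1D mice and at 13.1, 10.5 and 5.91 CPM in Lira mice. The Axin2 groups overlapped, with log2 fold changes of 0.39 (SE 0.32) and -0.04 (SE 0.32).

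Tcf7l2 and Tcf7l1, DNA-binding partners of beta-catenin, had T1D values above those of all other mice. Tcf7l2 was at 10.7, 8.82 and 9.50 CPM in NGT mice, at 16.3, 11.9 and 11.6 CPM in T1D mice and at 8.28, 9.81 and 8.73 CPM in Lira mice. It was 1.37-fold higher in T1D than in NGT mice (log2 0.45, SE 0.20, edgeR unadjusted p = 0.0555) and 0.675-fold in Lira against T1D mice (log2 -0.57, SE 0.20, edgeR unadjusted p = 0.0225, adjusted p = 0.978). Without T1D mouse 1 these log2 fold changes were 0.28 and -0.39. Tcf7l1 was at 15.7, 12.8 and 12.5 CPM in NGT mice, at 21.0, 17 and 17.1 CPM in T1D mice and at 16.8, 15.5 and 10.7 CPM in Lira mice, with log2 fold changes of 0.42 (SE 0.22) and -0.36 (SE 0.22), the latter -0.18 without Lira mouse 3. With CPM taken per library size, both genes overlapped between T1D and NGT mice and neither overlapped between Lira and T1D mice. Tcf7, a TCF factor known from T cells and named after its values were seen, was at 1.78, 1.39 and 1.11 CPM in NGT mice, at 3.53, 1.96 and 2.53 CPM in T1D mice and at 2.28, 0.857 and 6.14 CPM in Lira mice. Both Tcf7 and Lef1 (3.21 CPM) were highest in Lira mouse 3, the library with the highest T cell and B cell markers, and without that mouse the log2 fold change of Tcf7 in Lira against T1D mice turned from 0.21 to -0.76. Tcf7 overlaps Skp1 in RefSeq.

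**Figure D4:**
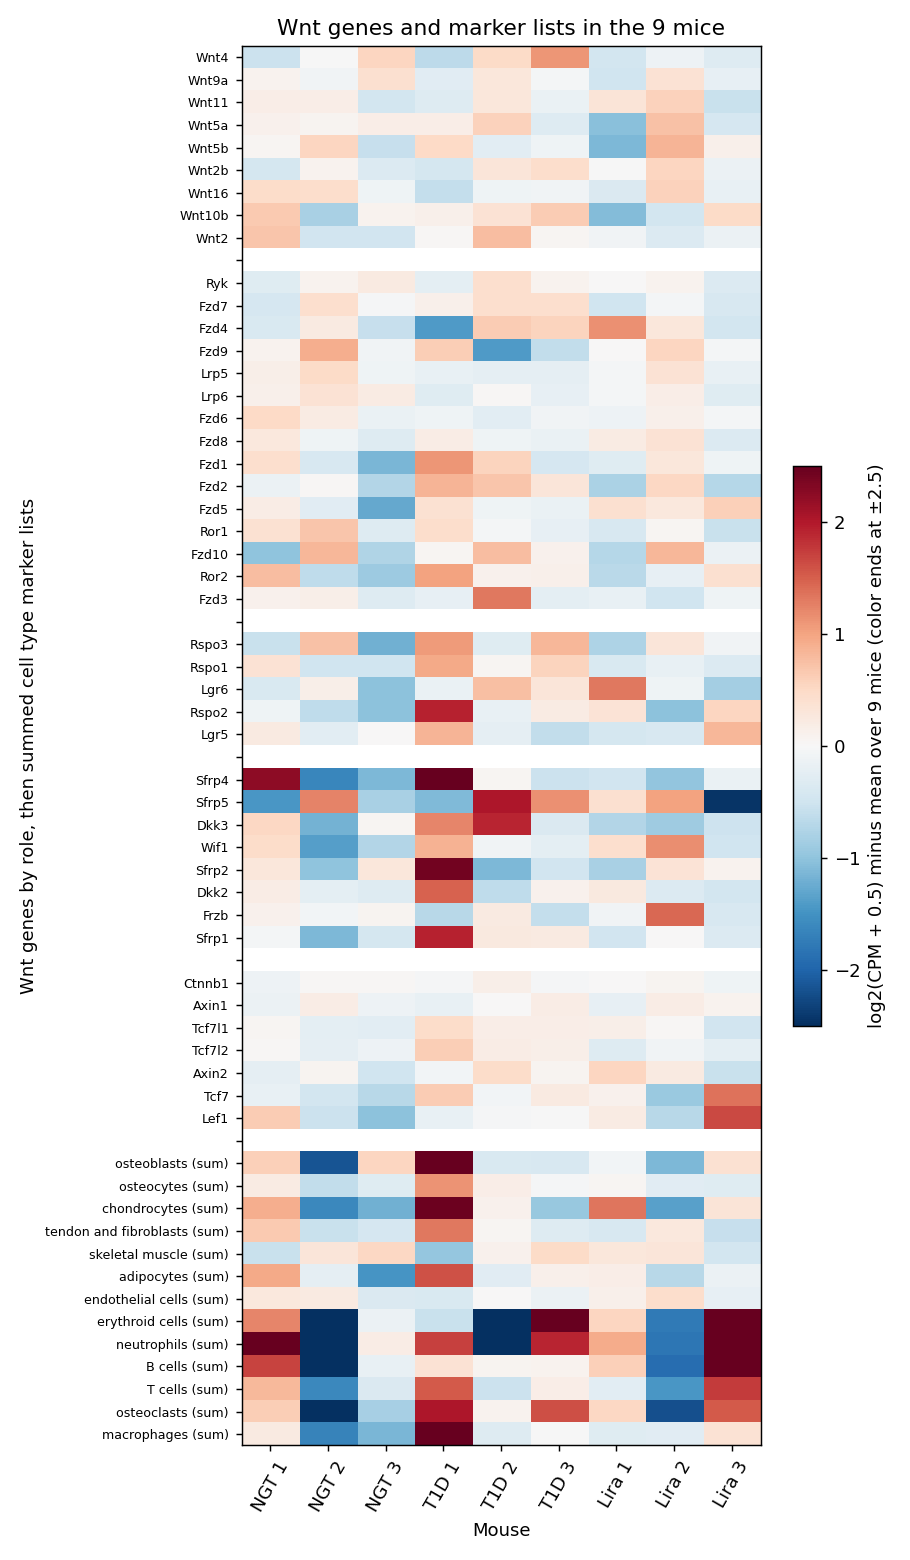
Log2 CPM (plus 0.5) of the 44 tested members, by role, and of the summed cell type marker lists in each of the 9 mice, as the difference from the mean over the mice (red higher, blue lower, colours ending at 2.5). T1D mouse 1 held the highest value of 13 of the 44 members, and Lira mouse 2 that of 10.

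Fzd7, Tcf7l1 and Tcf7l2 were above 1 FPKM on average, with Lira values all below T1D values under both scalings of CPM. The same held for Sfrp1, but the promoter set used here had no sequence for it. Promoter sequences from RefSeq (GRCm38.p6) are shown for Fzd7, Tcf7l1 and Tcf7l2, since beta-catenin acts through TCF/LEF sites and Tcf7l1 and Tcf7l2 bind them. Each runs 5′ to 3′ from 250 bases before to 50 bases after the start site, and capitals mark a match to CTTTGAA or CTTTGAT, or to CTTTGTA or CTTTGTT, on either strand.
Fzd7 (chr1:59481897-59482196, plus strand): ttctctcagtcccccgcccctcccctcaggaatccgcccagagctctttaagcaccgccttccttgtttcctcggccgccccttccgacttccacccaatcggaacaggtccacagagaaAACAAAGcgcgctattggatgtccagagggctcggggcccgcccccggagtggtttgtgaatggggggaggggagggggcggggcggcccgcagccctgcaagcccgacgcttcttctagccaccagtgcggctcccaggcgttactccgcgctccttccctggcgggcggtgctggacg
Tcf7l1 (chr6:72788996-72789295, minus strand): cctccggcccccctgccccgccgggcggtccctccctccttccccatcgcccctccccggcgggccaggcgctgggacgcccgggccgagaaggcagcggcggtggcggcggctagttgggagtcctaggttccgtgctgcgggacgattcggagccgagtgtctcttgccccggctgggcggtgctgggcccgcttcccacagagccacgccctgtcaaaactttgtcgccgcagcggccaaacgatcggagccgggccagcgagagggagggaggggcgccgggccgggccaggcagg
Tcf7l2, first start (chr19:55741560-55741859, plus strand): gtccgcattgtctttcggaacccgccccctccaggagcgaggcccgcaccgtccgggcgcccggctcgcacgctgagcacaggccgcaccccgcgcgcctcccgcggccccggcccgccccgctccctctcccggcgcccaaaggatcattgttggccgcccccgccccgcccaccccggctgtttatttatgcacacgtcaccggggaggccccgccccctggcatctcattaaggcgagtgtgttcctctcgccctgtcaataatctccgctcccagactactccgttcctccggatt
Tcf7l2, second start (chr19:55895071-55895370, plus strand): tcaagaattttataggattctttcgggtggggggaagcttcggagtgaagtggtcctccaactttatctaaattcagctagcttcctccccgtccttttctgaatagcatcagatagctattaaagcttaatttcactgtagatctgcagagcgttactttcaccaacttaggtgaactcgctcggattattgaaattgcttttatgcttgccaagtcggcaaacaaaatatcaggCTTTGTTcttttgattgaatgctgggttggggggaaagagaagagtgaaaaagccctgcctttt
The match in Fzd7, AACAAAG, began at position -130 from the start site. In Tcf7l2 the second start had CTTTGTT at position -14, and the first start had no match, nor did Tcf7l1. Among all member promoters, 7 of 47 (14.9%, from 38 members) held such a match against 16.9% of 32851 RefSeq promoters of the same length.

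Across the members, T1D values all above NGT values were found in 5 of 44 (11.4%: Tcf7, Tcf7l2, Tcf7l1, Sfrp1 and Fzd2) against 3.52% of tested genes, and all below in 2 (4.55%: Lrp5 and Lrp6) against 5.08%. With CPM taken per library size these counts were 3 (Fzd7, Lgr6 and Fzd2) against 2.58% and 1 (Lrp6) against 4.84%, so that Fzd2 and Lrp6 were the members with no overlap under both scalings of CPM. Lira values all below T1D values were found in 7 of 44 members (15.9%: Wnt2, Tcf7l2, Fzd7, Tcf7l1, Sfrp1, Dkk3 and Rspo1) against 3.40% of tested genes, and in 6 members, without Dkk3, against 3.43% per library size. The reverse order was found in 1 member, Lrp5, against 3.74%, and in 0 members against 2.41% per library size. On the deposited FPKM, T1D values lay all above NGT values in 3 members (Fzd7, Lgr6 and Fzd2) against 2.60% and all below in 1 (Lrp6) against 4.65%, and Lira values lay all below T1D values in 4 (Tcf7l2, Fzd7, Sfrp1 and Rspo1) against 3.27%. Tcf7l1, Wnt2 and Dkk3 thus overlapped between Lira and T1D mice on that scale, where 0 members had the reverse order against 2.34%. With 3 mice against 3, the smallest p of an exact two-sided permutation test on 1 gene is 0.1, so no single gene could pass by such a test.

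Mice of the same number in the NGT and T1D groups deviated together, although the labels do not say what the number marks, so T1D values were also set against the NGT mouse of the same number. In all 3 pairs 16 of 44 members (36.4%) were higher in the T1D mouse against 19.2% of tested genes, and 2 (4.55%, Lrp5 and Lrp6) were lower against 19.0%. The 16 were Fzd1, Fzd2, Fzd5, Fzd7, Ror2, Sfrp1, Sfrp4, Sfrp5, Wif1, Rspo1, Rspo2, Lgr6, Tcf7, Tcf7l1, Tcf7l2 and Axin2, of which Fzd7 differed only beyond the printed digits in the second pair (86.8 CPM in both mice). In a fit of the NGT and T1D mice alone that blocked on the replicate number, 12 members (27.3%) had an unadjusted p under 0.05 against 14.0% of tested genes: Sfrp1, Sfrp4, Sfrp5, Wif1, Fzd1, Fzd2, Rspo1, Rspo2, Tcf7l1 and Tcf7l2 at higher means in T1D mice, against a background of 8.14%, and Lrp5 and Lrp6 at lower means, against 5.85%. None passed the adjusted threshold, the lowest adjusted p of a member being 0.237, for Sfrp1. The same block over all 9 libraries left 3 members with an unadjusted p under 0.05 (Sfrp1, Fzd2 and Lrp6) against 5.39% of genes. In Lira against T1D mice, whose numbers were not taken as pairs, the block left 5 members (Tcf7l2, Fzd7, Dkk3, Fzd2 and Rspo1) against 3.63% over all libraries and 2 (Fzd7 and Dkk3) against 1.85% over these groups alone.

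**Figure D5:**
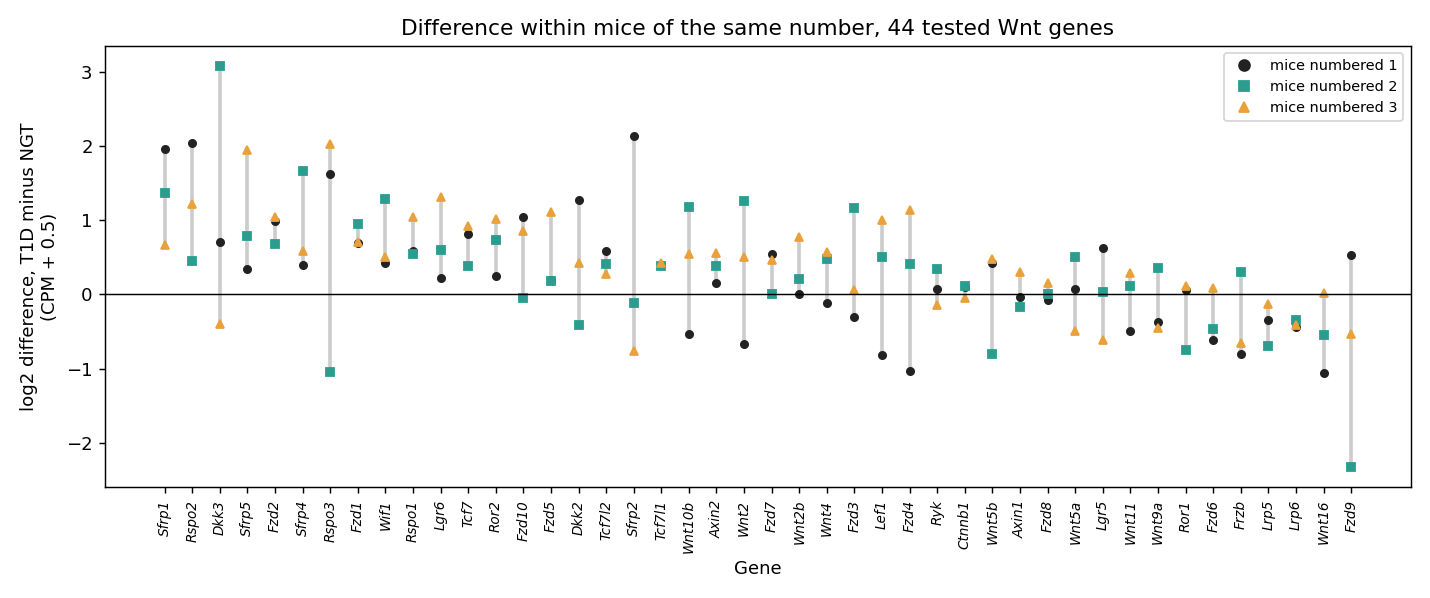
Log2 difference between the T1D and the NGT mouse of the same number (CPM plus 0.5) for the 44 tested members, where each point is 1 of the 3 pairs, the bar spans the pairs, and members are ordered by their mean difference. Of the 44 members, 16 were higher in T1D in all 3 pairs and Lrp5 and Lrp6 were lower in all 3.

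T1D mouse 1 held the highest value of 13 of the 44 members (29.5%) against 20.7% of tested genes: Lgr5, Sfrp1, Sfrp2, Sfrp4, Dkk2, Ror2, Fzd1, Fzd2, Tcf7l1, Tcf7l2, Rspo1, Rspo2 and Rspo3. Sfrp2 was at 18.1 CPM there and at 1.11 to 3.89 CPM in the other 8 libraries, and Dkk2 was at 20.1 CPM there and at 4.26 to 8.28 CPM elsewhere. Lira mouse 2 held the highest value of 10 members (22.7%), among them Frzb at 13.8 CPM and Wnt5a, against 11.4% of tested genes. Lira mouse 3 held that of 3 members (Fzd5, Tcf7 and Lef1) against 19.9%. The members spread more than genes in general: the ratio of the highest to the lowest CPM had a median of 4.71 over 43 tested members with no 0, beside 2.11 over all such genes, while their median level was 5.44 CPM beside 15.9 CPM.

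Other genes of the pathway were taken from 3 lists. Of 21 regulators at the cell surface and in secretion, 15 were tested, of which 12 had positive log2 fold changes in T1D against NGT mice (median 0.29) and 3 in Lira against T1D mice (median -0.17). Of 37 components of the intracellular cascade and of planar cell polarity (among them the membrane proteins of the Celsr and Vangl families), all tested, 18 were positive in the first comparison (median -0.01) and 20 in the second (median 0.12). Of 15 known target genes, 14 were tested, and 13 were positive in T1D against NGT mice (median 0.67) and 2 in Lira against T1D mice (median -0.64). Over all genes 52.1% and 55.3% were positive. The osteoblast, macrophage and adipocyte markers moved as the target list did, with all 9, all 6 and all 6 higher and then lower. The medians of all 13 marker lists, of which some moved this way and others did not, are given with the antagonists. The target list itself holds Runx2, a transcription factor of osteoblasts. The part of the markers in the target values was not tested. None of these genes passed an adjusted p of 0.05 in edgeR's test; at an unadjusted p under 0.05 there were 1, 1 and 1 genes in the first comparison, where 3.95% of all genes were, and 0, 3 and 3 in the second, where 3.33% were.

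Wisp2, a matricellular target gene, had the lowest unadjusted p of the targets in T1D against NGT mice. It was at 3.43, 0.619 and 1.42 CPM in NGT mice, at 27.2, 6.68 and 1.60 CPM in T1D mice and at 1.78, 1.87 and 2.18 CPM in Lira mice, so that T1D mouse 1 was far above the rest, and T1D mouse 3 was within the NGT range and below all Lira mice. Its log2 fold changes were 2.68 (SE 0.96, edgeR unadjusted p = 0.0219) and -2.60 (SE 0.96, edgeR unadjusted p = 0.0247). Twist1, a transcription factor of mesenchymal cells, was at 8.92, 4.58 and 1.80 CPM in T1D and at 1.71, 2.02 and 2.47 CPM in Lira mice, and Gja1, a gap junction connexin, was at 52.9, 23.4 and 22.2 CPM in T1D and at 21.6, 12.9 and 17.9 CPM in Lira mice. Both had log2 fold changes with an unadjusted p under 0.05 in Lira against T1D mice, -1.30 (SE 0.56) for Twist1 and -0.91 (SE 0.39) for Gja1. Among the surface regulators, Igfbp4, an IGF-binding protein, was at 71.6, 31.2 and 41.0 CPM in NGT and at 170, 90.6 and 90.6 CPM in T1D mice without overlap (log2 1.29, SE 0.38, edgeR unadjusted p = 0.00809, adjusted p = 0.977). The background for this order was 3.52% of tested genes, and with CPM taken per library size T1D mouse 3 fell below NGT mouse 1. Lira mice had Igfbp4 at 87.7, 53.4 and 68.9 CPM, all below the T1D mice (log2 -0.74, SE 0.37), beside 3.40% of tested genes.

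Celsr2, a planar cell polarity cadherin, was lower in all T1D mice, at 7.77, 11.8 and 7.34 CPM, than in NGT mice, at 13.5, 17.3 and 14.6 CPM, and than in Lira mice, at 13.3, 15.7 and 11.9 CPM. The background for this order was 1.23% of tested genes. The log2 fold changes of Celsr2 were -0.75 (SE 0.24, edgeR unadjusted p = 0.0117) and 0.61 (SE 0.24, edgeR unadjusted p = 0.0313). Tle4, a co-repressor of TCF factors, was at 19.0, 25.5 and 26.7 CPM in T1D and at 60.7, 32 and 29.0 CPM in Lira mice (log2 0.77, SE 0.30), and Dact1, which binds Dishevelled, was at 4.78, 6.68 and 6.14 CPM in T1D and at 4, 4.13 and 3.33 CPM in Lira mice (log2 -0.62, SE 0.26). Neither Tle4 nor Dact1 overlapped between Lira and T1D mice, where the background was 3.74% of tested genes for higher and 3.40% for lower Lira values. Sost, the osteocyte antagonist of Lrp5 and Lrp6, was low, at 0.508, 0 and 0.237 CPM in NGT mice, at 0.489, 0.655 and 1.40 CPM in T1D mice and at 0.285, 0.0779 and 0.918 CPM in Lira mice. The groups overlapped for Sost, with log2 fold changes of 1.69 (SE 1.07) and -0.93 (SE 1.01).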

How the data were processed

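Total RNA from tibiae cleaned of muscle and connective tissue was sequenced after oligo(dT) selection, 1 library per mouse. The authors aligned the reads to the mouse genome, for which the submitters' processing notes name mm9, and deposited expected counts and FPKM per gene; the aligner, counter, annotation and strand setting are not given in the sources used here. Of the deposited counts, 30.2% were not whole, which arises where reads are shared between genes or isoforms, and 16 of the 56 members had such a count in at least 1 library, 5 of them in all 9 (Lgr5, Lgr6, Wnt2, Wnt4 and Sfrp1). Of the 56 members, 8 overlap another gene of the table. The deposited FPKM were used to compare levels between genes and, between groups, only to see whether the values of a gene overlapped. The number of sample columns left unused because they matched no sample was 0.

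After rounding of the expected counts, genes reaching 10 counts in 3 or more of the 9 libraries were kept. The 3 group means were fitted over the 9 libraries with edgeR 4.0.16 (R 4.3.3; TMM scaling, quasi-likelihood F-test, Benjamini-Hochberg adjustment over all 13960 genes, threshold 0.05). CPM are TMM-scaled unless stated otherwise. The common biological coefficient of variation was 0.433. On simulated counts of these genes with 200 changed, 116 were recovered at a 4-fold and 180 at a 16-fold change. Replicates are separate mice, and p-values measure the spread between these mice. The rule for members uses symbols alone, but this set of genes, like the other gene lists, was chosen with earlier results of these data known, so the members' shares beside the background are not free of that choice. Within each role, the 4 members with the highest mean FPKM were named, with every tested member at an unadjusted p under 0.05 in either comparison and, of the other pathway lists, genes at that level and Sost. Other members given with values were named after their values were seen: those whose groups did not overlap, Axin2, Lef1, Sfrp2, Dkk2 and Frzb.

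Over tested genes, deviations from the group means correlated at 0.283 to 0.647 between same-numbered mice of the NGT and T1D groups. Between unlike numbers the values were -0.697 to 0.067. Deviations from a mean of 3 mice cancel out within the group, so positive values between like numbers push those between unlike numbers down. On the like-number values these numbers were taken to pair the mice. The labels do not say what a number marks, and the pairing rests on these correlations in the same data. For T1D and Lira mice the same-number values were -0.244 to 0.615, so these numbers were not taken as pairs. Alternatives were DESeq2 1.42.0, scaling by library size, no count minimum, only the groups compared, a replicate block with all libraries or with the groups compared, and leaving out each mouse. Leaving out T1D mouse 1 with NGT mouse 1 or Lira mouse 3, the overlap per library size or on FPKM and the direction within pairs were added after the data were seen.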

Additional observations from a re-analysis of the deposited data

How the results depend on the processing

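No tested member passed an adjusted p of 0.05 under any alternative run. The lowest adjusted p of a member was 0.237 in T1D against NGT (replicate block with only these groups) and 0.751 in Lira against T1D (without Lira mouse 3). Members with an unadjusted p under 0.05 numbered 2 in T1D against NGT, 4 with DESeq2, 2 by library size (Sfrp1 and Fzd7 but not Lrp6, beside 3.40% of all genes), 2 without a count minimum, 3 with only the groups compared (3.99%), 3 with the replicate block, 12 with the replicate block and only the groups compared, 5 without NGT mouse 1 and T1D mouse 1 together (4.06%), and 2 to 8 when 1 mouse was left out (8 without NGT mouse 1, where 7.31% of all genes did, against 1.61% without NGT mouse 2, where 3 members did). In Lira against T1D they numbered 5, 4 with DESeq2, 5 by library size (with Wnt4 but not Tcf7l2, beside 2.51%), 5 with only the groups compared (2.13%), 5 without a count minimum and 5 with the replicate block, 2 with the replicate block and only the groups compared, 4 without T1D mouse 1 and Lira mouse 3 together (3.55%), and 1 to 6 when 1 mouse was left out (1 without Lira mouse 1, beside 1.86% of all genes, 2 without Lira mouse 3, beside 5.30%, and 3 without T1D mouse 3, beside 5.06%). Members with no overlap by library size numbered 3 higher and 1 lower in T1D against NGT, and 0 higher in Lira against T1D, and on the deposited FPKM 3, 1 and 0 with 4 lower in Lira against T1D. In Lira against T1D the log2 fold change turned to -0.05 for Axin1 and to -0.04 for Lgr6 by library size, to -0.21 for Lgr6 with the replicate block, and to -0.31 for Lgr6 and -0.15 for Tcf7 with the replicate block and only the groups compared. With 2 mice left out together it turned to 0.20 for Wnt11 in T1D against NGT, and to -0.09 for Axin1 and -0.51 for Tcf7 in Lira against T1D.

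When mice were left out, these log2 fold changes changed sign. In T1D against NGT the ranges were -0.06 to 0.15 for Axin1, -0.01 to 0.09 for Ctnnb1, -0.09 to 0.25 for Ryk, -1.13 to 2.91 for Sfrp4, -0.27 to 0.20 for Wnt11, -0.02 to 1.71 for Wnt2, -0.05 to 0.77 for Wnt4 and -0.18 to 0.28 for Wnt5a. In Lira against T1D they were -0.09 to 0.13 for Axin1, -0.08 to 0.02 for Ctnnb1, -0.22 to 0.61 for Fzd4, -1.03 to 0.52 for Lgr6, -0.01 to 0.22 for Lrp6, -1.88 to 0.17 for Rspo2, -0.76 to 0.65 for Tcf7, -0.26 to 1.08 for Wif1, -0.96 to 0.08 for Wnt5a and -0.36 to 0.11 for Wnt9a. The cause was not tested. The 12 untested members held 1 to 76 counts over the 9 libraries.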
